A study of Mus musculus with 3 samples.

Results

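The genes described here encode motors and subunits of ATP-dependent chromatin remodellers, and they were examined for the open chromatin at their own promoters and along their gene bodies. There were 8 of them among 22359 protein-coding genes: Bptf, Smarca1, Smarca5, Rbbp4, Rbbp7, Chd2, Chd4 and Smarca4. They were chosen by name, and every accessible region within the gene body or within 10 kb of either end was taken from the 3 deposited ATAC-seq peak lists. This gave 29 of 60898 peaks in WT, 29 of 150354 peaks at 1 week and 30 of 151725 peaks at 5 weeks.

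Chromatin remodellers use ATP to slide, space or evict nucleosomes, and so set which stretches of DNA other proteins can reach. NuRF belongs to the ISWI family. In mammals it holds Bptf, a large scaffold that reads histone marks, the motor Smarca1 (SNF2L), and the histone-binding proteins Rbbp4 and Rbbp7. Smarca5 (SNF2H) is the other ISWI motor and works in several nucleosome-spacing complexes. Chd2 is a chromodomain motor found along transcribed genes, Chd4 is the main motor of the NuRD complex, which also deacetylates histones and shares Rbbp4 and Rbbp7, and Smarca4 (BRG1) is a motor of the SWI/SNF complexes. The question asked of the libraries was what became of islet accessibility once Taf4, a component of the basal transcription factor TFIID, was lost.

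ATAC-seq marks open chromatin by the sites at which a transposase can insert sequencing adapters. The material was cells dissociated from isolated islets of Langerhans of mice whose strain is given as C5LBl6. The WT group came from wild type adults, and the other 2 groups were Taf4 KO at 1 week and at 5 weeks. In the study's methods, Taf4 was inactivated by tamoxifen in animals with floxed Taf4 and Ins1::Cre-ERT2, a Cre recombinase driven by an insulin promoter, and controls carried the same Cre with intact Taf4 and also received tamoxifen. The Cre acts in beta cells, so islet cells of other lineages should keep Taf4, and a peak in these lists can come from cells with or without it. There was 1 library per group. No test between groups was therefore possible, and every difference given below is a difference between 3 libraries that has no replicate check.

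Each peak carries the fold of its pileup over the local background and a -log10 q, the caller's significance after correction for multiple testing, both averaged over the peak. The weakest peaks had a -log10 q of 1.02 (WT), 1.01 (1 week) and 1.01 (5 weeks). A percentile below is the share of the peaks of one list whose -log10 q is at or under that of the peak named. The Taf4 KO lists were 2.47 and 2.49 times as long as the WT list, so percentiles were also taken among the promoter peaks of a list, 1 per gene, and in lists cut to the same number of peaks. The read background recovered from the lists was 3.66 reads (WT), 6.45 (1 week) and 9.38 (5 weeks), and its part in which peaks were listed was not tested. At equal fold, -log10 q is higher where the background is higher. Its values, and fixed minima of it, are therefore not on the same scale in the 3 lists. The caller also adds a pseudocount to pileup and background, which lowers the fold most where the background is lowest, as in WT. Chromosome X held 1272 WT peaks, 12225 peaks at 1 week and 1451 at 5 weeks. Taken per Mb, this was 0.316, 1.31 and 0.143 times the autosomes. Chromosome Y held 44 peaks, all at 5 weeks. The sex of the animals is not in the labels. Of the cell type markers, beta cell genes had a promoter peak in 5 of 5 cases in each list. Delta cell genes had 0, 1 and 2 of 2, alpha cell genes 2, 3 and 3 of 3, with Gcg, the alpha cell hormone gene, at no promoter peak in WT, and acinar genes 0 of 4 in each. The endothelial genes had 1, 3 and 4 of 5, the stellate and fibroblast genes 0, 0 and 4 of 4, the immune genes 0, 1 and 1 of 3, and the duct genes 1, 1 and 2 of 3. Taf4 itself (Taf4a in the annotation) had promoter peaks whose -log10 q was 8.53 (WT), 1.32 (1 week) and 8.01 (5 weeks). The part of the X chromosome and of the cell mixture in the values below was not tested, and fewer cells with an open site cannot be told apart from a less open site per cell.

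The promoters differ in base composition and in the short motifs they hold, and 5 stretches are shown. They are those of Bptf, the promoter without a peak at 1 week, of Smarca4, whose peak fell far in rank at 1 week, of Smarca1, whose peak was weakest at 5 weeks, and of both starts of Chd2, of which the inner one carried the strongest peak of the set. Each is the stretch just upstream of an annotated start, read from NCBIM37 (mm9), 5′ to 3′ on the strand of the gene. Capitals mark matches to the motifs searched, on either strand. Bptf is at chr11:106993442-106993691 on the minus strand, Smarca4 at chr9:21420363-21420612 on the plus strand, and Smarca1 at chrX:45245730-45245946 on the minus strand, upstream of its longest transcript and less 33 bases that another transcript has in an exon. The inner start of Chd2 is at chr7:80682508-80682757 and its outer start at chr7:80686633-80686882, both on the minus strand.
Bptf: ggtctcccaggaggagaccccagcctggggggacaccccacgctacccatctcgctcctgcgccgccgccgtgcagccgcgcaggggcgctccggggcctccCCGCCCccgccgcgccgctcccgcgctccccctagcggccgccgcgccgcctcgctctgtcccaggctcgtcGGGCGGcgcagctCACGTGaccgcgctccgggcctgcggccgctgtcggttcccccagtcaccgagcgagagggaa
Smarca4: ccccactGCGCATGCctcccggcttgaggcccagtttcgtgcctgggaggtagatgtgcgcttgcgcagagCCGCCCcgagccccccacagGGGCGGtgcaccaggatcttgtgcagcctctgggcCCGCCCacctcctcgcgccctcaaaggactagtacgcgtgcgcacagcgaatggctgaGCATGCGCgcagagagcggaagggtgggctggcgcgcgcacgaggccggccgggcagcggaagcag
Smarca1: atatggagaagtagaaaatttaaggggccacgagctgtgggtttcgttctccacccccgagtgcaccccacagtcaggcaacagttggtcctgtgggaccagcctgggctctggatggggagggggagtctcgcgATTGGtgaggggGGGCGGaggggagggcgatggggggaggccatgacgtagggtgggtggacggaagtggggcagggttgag
Chd2 inner start: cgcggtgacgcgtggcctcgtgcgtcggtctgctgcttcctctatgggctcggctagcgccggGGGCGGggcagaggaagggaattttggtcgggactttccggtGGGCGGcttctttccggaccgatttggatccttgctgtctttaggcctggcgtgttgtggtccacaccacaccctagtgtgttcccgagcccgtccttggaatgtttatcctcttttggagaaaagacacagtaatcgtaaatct
Chd2 outer start: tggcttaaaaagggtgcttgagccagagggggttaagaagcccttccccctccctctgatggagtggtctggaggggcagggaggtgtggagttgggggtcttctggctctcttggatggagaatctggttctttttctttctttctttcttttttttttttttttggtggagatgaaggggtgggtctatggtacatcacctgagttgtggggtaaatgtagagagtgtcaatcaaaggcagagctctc

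Motifs were sought from 250 bases before to 50 bases after the 5′ end of each gene, and for Chd2 at the inner start, where its WT peak lay. The shares of all promoters are over the 5′ ends of all 22359 genes, with or without a promoter peak. All 8 genes had such a peak in WT, so these shares are not a matched comparison. SP1 (GGGCGG) was found in 7 of the 8 windows, all but that at the 5′ end of Smarca1, and in 43.4% of all promoters. NF-Y (CCAAT) was found in 4 of 8, Smarca1, Rbbp4, Rbbp7 and Chd4, and in 37.9% of all. The NRF1 letters (GCGCATGC) occurred in 2 of 8, once in Smarca5 and at 2 places in Smarca4, and in 3.30% of all promoters. The E-box (CACGTG), the letters bound by Myc and its relatives, occurred in Bptf and Rbbp4 and in 7.79% of all. The YY1 letters (AAGATGGC) occurred in Bptf alone, downstream of the start and so outside the stretch shown, and in 3.29% of all. Neither the ETS letters (CCGGAAG, 10.8% of all) nor the TATA box (TATAAA, 13.4% of all) occurred in any of the 8. None of the letter strings contains another. The window of Bptf had a GC content of 77.0% and 42 CpG, that of Smarca4 72.3% and 33 CpG, and that of the inner start of Chd2 54.0% and 22 CpG. The outer start of Chd2 had 51.0%, 3 CpG and none of the 7 motifs. At Smarca1 the 5′ end of the gene had 42.3% and 2 CpG, and the start of its longest transcript, added after the values had been seen, 60.7% and 12 CpG. The window of that start, which is outside the counts above, held SP1 and NF-Y at 1 place each. These are descriptions of letters, and no binding was measured.

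In WT all 8 promoters carried a peak, at 1 week 7 of 8 and at 5 weeks 8 of 8. A promoter here is the stretch that begins 1000 bp before and ends 100 bp after an annotated start of a coding transcript, and several starts per gene were allowed. Over all genes, 59.0%, 55.9% and 65.6% had such a peak. The gene without a peak at 1 week was Bptf. Among all genes called in WT, 14.5% lacked a promoter peak at 1 week and 1.89% lacked one at 5 weeks, so 1 of 8 and 0 of 8 are near the background. The median fold of the promoter peaks of the set was 4.33 (WT), 3.15 (1 week) and 3.64 (5 weeks), beside 4.29, 3.33 and 3.68 over all genes with a promoter peak.

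**Figure D1:**
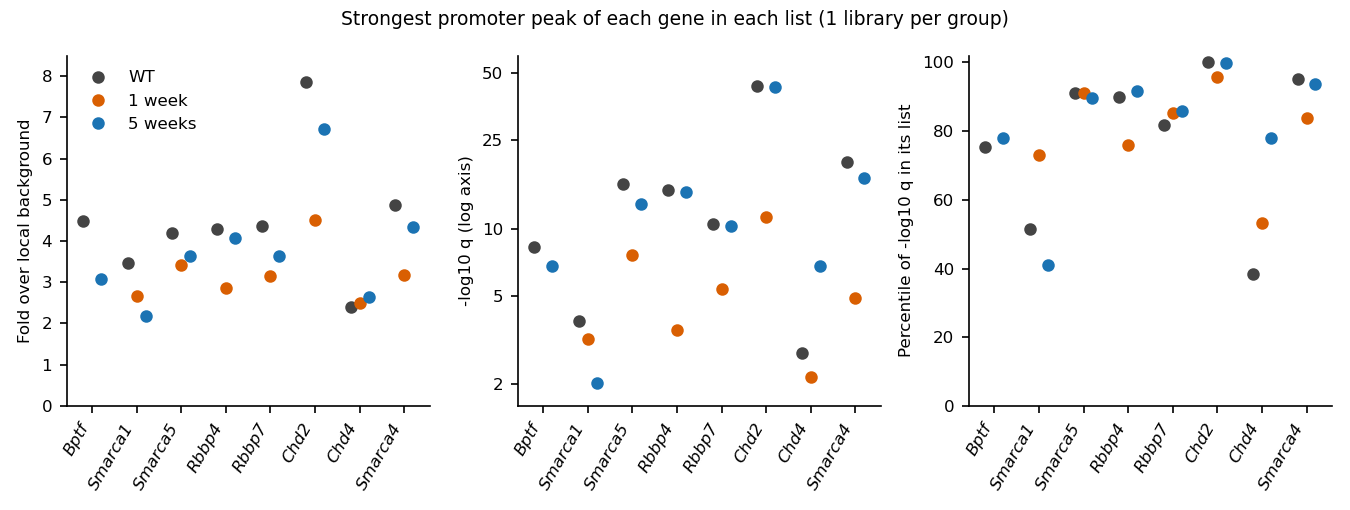
Strongest promoter peak of each gene in the WT, 1 week and 5 week lists, as fold over the local background (left), -log10 q on a log axis (middle) and percentile of -log10 q within its own list (right), 1 point per library with no replicate. Bptf has no point at 1 week, Chd2 has the highest points in all 3 lists, and Chd4 is the gene whose fold is not lower in the Taf4 KO lists.

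Bptf (ENSMUSG00000040481) spans 99.0 kb of chromosome 11 (106894395 to 106993441, minus strand). Its promoter peak in WT began 325 bp upstream of the 5′ end and reached 963 bp into the gene, at 4.49-fold and a -log10 q of 8.29. No peak was listed there at 1 week. At 5 weeks a peak of almost the same position, 280 bp upstream to 958 bp downstream, reached 3.08-fold and a -log10 q of 6.82. The library without the peak was thus the 1 week library, and the peak of the 5 week library was lower in fold than that of WT, by a ratio of 0.686, below which lay 5.31% of all genes with both peaks. The rank of the peak was the 75.5 percentile in WT and 78.0 at 5 weeks, but among promoter peaks it was 32.1 and 23.5, and in lists of equal number 75.5 and 45.2. Genes with WT promoter peaks of like -log10 q lacked a peak at 1 week in 16.1% of cases, and genes with a like GC content in the surrounding 1 Mb in 11.2%. An unlisted peak does not show closed chromatin, only that no signal there passed the caller.

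In WT the body of Bptf held 6 intragenic peaks, all in introns, of which 4 were overlapped by a peak at 1 week. The fold was lower than in WT in these 4 as well, least so in the one nearest the promoter. The region from 106985445 to 106986223, about 7.2 to 8.0 kb inside the gene, had a fold of 5.64 (WT), 5.38 (1 week) and 4.85 (5 weeks). Its -log10 q was 15.2, 16.9 and 19.3, and at 1 week it stood at the 98.7 percentile of the list. It was stronger than the Bptf promoter peak in WT and at 5 weeks, the lists that hold both. Another intronic region, from 106974414 to 106974841, reached -log10 q values of 9.60 (WT), 4.21 (1 week) and 23.4 (5 weeks). By -log10 q this one was lowest in the 1 week library and highest in the 5 week library. Its folds of 4.41, 3.03 and 5.32 had the same order. The same held for the region from 106955151 to 106955609. Its -log10 q was 5.32, 5.02 and 14.2, and its fold 3.75, 3.27 and 4.23. By rank within its own list each was lowest in WT instead. The percentiles were 79.3, 80.5 and 97.6 for the first and 62.5, 84.1 and 91.2 for the second. Downstream of the gene, the region from 106888540 to 106889922 was listed in all 3 libraries with a -log10 q of 11.7, 9.36 and 24.7. At 5 weeks a further peak of 2.31-fold and a -log10 q of 2.54 lay at an internal annotated start of Bptf, from 106914133 to 106914469, and had no counterpart in the other lists. The Bptf locus held 8 peaks in WT, 5 at 1 week and 11 at 5 weeks.

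**Figure D2:**
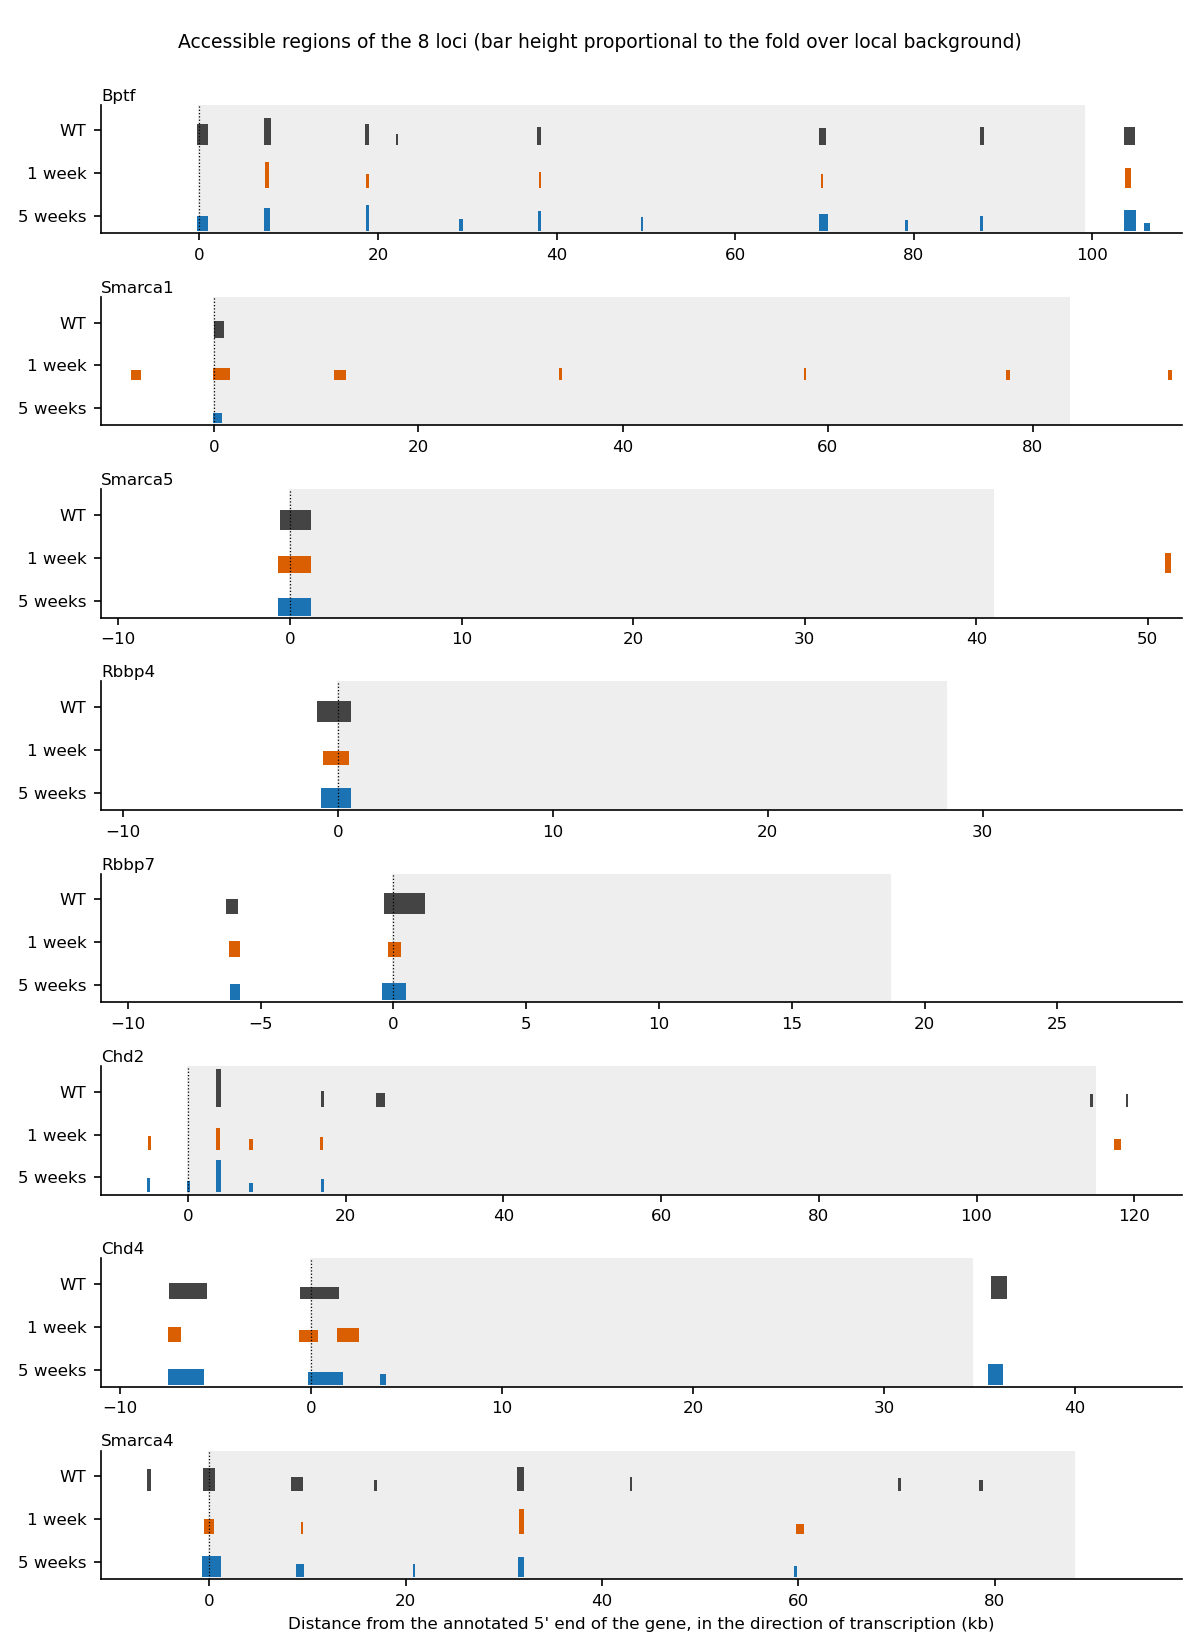
Peaks of the 8 loci in the WT, 1 week and 5 week lists, by distance in kb from the annotated 5′ end in the direction of transcription, with the gene body shaded and 10 kb on each side. Bar height is proportional to the fold over local background, and the narrowest peaks are drawn wider than they are so that they can be seen. The promoter bar of Bptf is missing at 1 week while 4 intragenic bars remain, and 6 further bars of Smarca1 are seen at 1 week alone.

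Smarca1 (ENSMUSG00000031099), the NuRF motor, lies on chromosome X (45162547 to 45246151, minus strand). Its promoter peak had a fold of 3.46 (WT), 2.68 (1 week) and 2.19 (5 weeks). The -log10 q was 3.85, 3.19 and 2.03. Both values were thus highest in WT and lowest at 5 weeks, and among promoter peaks this was a weak one in every list, at the 12.8, 21.9 and 5.61 percentiles. Its ratio of fold at 5 weeks against WT was 0.632, below which lay 2.22% of all genes with both peaks. At 1 week the ratio was 0.773, with 41.4% of genes below. The peak was 947 bp wide in WT, 1640 bp at 1 week and 810 bp at 5 weeks. At a minimum -log10 q of 3 the peak was kept in WT and at 1 week and lost at 5 weeks, and at a minimum of 5 it was lost in each list. When the Taf4 KO lists were cut to the number or covered length of the WT list, or scaled to its background, it was kept at 1 week and lost at 5 weeks.

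The Smarca1 locus held no other peak in WT or at 5 weeks, and 6 others at 1 week. These 6 were weak, with -log10 q from 1.35 to 2.24 and folds from 2.19 to 2.51, and 4 of them lay within the gene. They stood beside the excess of peaks over the whole X chromosome in that library: the 1 Mb around the start of Smarca1 held 18 peaks in WT, 87 at 1 week and 16 at 5 weeks. On this chromosome, promoters of 404 of 932 genes were called in WT, 516 at 1 week and 422 at 5 weeks. The median ratio of promoter fold to WT was 0.719 on X against 0.817 on the autosomes at 1 week, and 0.875 against 0.904 at 5 weeks.

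Rbbp7 (ENSMUSG00000031353), from 159198334 to 159217024 on the plus strand, is the other X-linked gene of the set, and its product is shared by NuRF and NuRD. Its promoter fold was 4.36 (WT), 3.15 (1 week) and 3.63 (5 weeks), with a -log10 q of 10.5, 5.34 and 10.3. The peak narrowed from 1546 bp in WT to 503 bp at 1 week and 903 bp at 5 weeks, and lost its downstream side, which reached 1184 bp into the gene in WT but 293 bp and 464 bp in the Taf4 KO lists. The width ratios of 0.325 and 0.584 were among the low ones, with 6.57% and 3.55% of all genes with both peaks below. In its upstream region, from 159192048 to 159192574 and about 6 kb before the start, neither fold nor -log10 q was lower in the Taf4 KO lists. There the fold was 3.12, 3.32 and 3.45 and the -log10 q was 2.80, 5.45 and 8.71. The part of the caller's pseudocount and of the unlike backgrounds in these rises was not tested. The 1 Mb around Rbbp7 held 16, 78 and 18 peaks, yet its own locus held 2 peaks in each list, so the excess at Smarca1 was not seen within this shorter locus.

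Rbbp4 (ENSMUSG00000057236), the autosomal histone-binding partner, lies on chromosome 4 (128984344 to 129012614, minus strand). Its locus held 1 peak in each list, the promoter peak, which also touched the promoter window of the divergent neighbour Zbtb8os. The fold was 4.30 (WT), 2.87 (1 week) and 4.08 (5 weeks), and the -log10 q was 14.9, 3.52 and 14.6. The 1 week library was low and the other 2 were close to each other. Among promoter peaks the rank was 62.8, 25.4 and 57.4, the second deepest fall of the set at 1 week. Smarca5 (ENSMUSG00000031715), the other ISWI motor, on chromosome 8 (83222406 to 83263396, minus strand), had a fold of 4.19, 3.42 and 3.65 and a -log10 q of 15.8, 7.60 and 13.0. Among promoter peaks its rank was 66.4, 61.2 and 50.4, the deepest fall of the set at 5 weeks, where Rbbp4 was close to WT. In the whole lists the percentile was 91.1, 91.0 and 89.8, and in lists of equal number 91.1, 77.9 and 74.5. The widths were 1811, 1938 and 1931 bp. Beyond its 3′ end a peak from 83212058 to 83212415 was listed at 1 week alone, at 4.17-fold and a -log10 q of 12.3, stronger than the Smarca5 promoter peak of that list.

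Chd2 (ENSMUSG00000078671), a chromodomain motor, spans 115 kb of chromosome 7 (80571577 to 80686632, minus strand). Its strongest promoter peak lay not at the outer 5′ end but at the annotated inner start at 80682507, between 3567 and 4152 bp inside the gene in WT. The fold was 7.85 (WT), 4.50 (1 week) and 6.73 (5 weeks), and the -log10 q was 43.9, 11.3 and 43.4. The peak was the strongest promoter peak of the 8 in each list, at the 99.9, 79.9 and 99.5 percentiles among promoter peaks. Its fold ratio of 0.574 at 1 week was the lowest of the set, with 9.23% of genes with both peaks below. At 5 weeks it was 0.857, with 36.2% below. The outer 5′ end, which holds few CpG and none of the motifs sought, had no peak in WT or at 1 week and a weak one at 5 weeks, at 2.32-fold and a -log10 q of 2.71. Of genes with no peak at the 5′ end in those 2 lists, 11.7% had one at 5 weeks. Further in, the intronic region from 80669349 to 80669825 was kept in all lists with a -log10 q of 3.01, 2.64 and 4.70. Regions at 80571806 and 80661693, with -log10 q values of 1.92 and 2.08, were in the WT list alone.

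Chd4 (ENSMUSG00000063870), the NuRD motor, lies on the plus strand of chromosome 6 from 125045999 to 125080609. It was the exception in the direction of the fold of its listed peaks. Its promoter fold was 2.41 (WT), 2.49 (1 week) and 2.64 (5 weeks). The ratios of 1.03 and 1.09 exceeded those of 86.6% and 89.8% of all genes with both peaks. The -log10 q was 2.78, 2.17 and 6.83. This promoter peak was broad and shallow, the weakest in fold of the set in WT and at 1 week, and 2051 bp wide in WT. Among promoter peaks it stood at the 7.89 percentile in WT, 10.4 at 1 week and 23.5 at 5 weeks. A peak this weak could go unlisted if its fold were clearly lower, and it would then have no ratio. At 1 week the same stretch held 2 peaks, of 991 bp over the start and of 1121 bp from 1376 bp inside the gene, with the second outside the promoter window and stronger, at a -log10 q of 3.48. The percentile of the promoter peak went from 38.4 in WT to 53.1 and 78.1, but in lists of equal number the 5 week value was 45.3, and the 1 week list cut to that number held no Chd4 promoter peak. At a minimum -log10 q of 3 or of 5 the peak was kept at 5 weeks alone. An upstream region, from 125038481 to 125040534, was listed throughout with folds of 3.24, 3.17 and 3.35. Just downstream of Chd4, the peak at the promoter of Nop2, which encodes a nucleolar RNA methyltransferase, stood at 4.78-fold in WT with a -log10 q of 12.2, was not listed at 1 week, and stood at 4.21-fold with 15.3 at 5 weeks.

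Smarca4 (ENSMUSG00000032187), the SWI/SNF motor, lies on the plus strand of chromosome 9 from 21420613 to 21508674. Its promoter fold was 4.88 (WT), 3.17 (1 week) and 4.35 (5 weeks), and the -log10 q was 19.9, 4.89 and 16.9. The 1 week library was again the low one. Among promoter peaks the rank was 79.7, 39.1 and 66.2. The fall by 40.6 points at 1 week was the deepest of the set, exceeded in 8.56% of genes with both peaks. An intronic region did not fall with the promoter at 1 week. The region from 21452000 to 21452671, about 31.4 to 32.1 kb inside the gene, had folds of 5.11, 5.27 and 4.09 and a -log10 q of 12.6, 15.8 and 13.2, at the 86.2, 98.4 and 90.1 percentiles. An upstream region from 21414316 to 21414733 was listed in WT alone, at 4.65-fold and a -log10 q of 7.96, the strongest peak of the 8 loci found in a single list after that beyond Smarca5. The other regions found in WT alone at this locus were 4 intronic ones with -log10 q from 1.14 to 2.43. In all, Smarca4 had 8 peaks in WT, 4 at 1 week and 5 at 5 weeks.

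Set side by side, 6 of 7 genes with both peaks had a lower promoter fold at 1 week than in WT, and 7 of 8 at 5 weeks. Over all genes with both peaks, 83.3% and 76.6% were lower. The median ratio was 0.722 at 1 week for the set and 0.813 for all genes, and 0.863 and 0.903 at 5 weeks. Without the caller's pseudocount, these medians were 0.705 and 0.804 at 1 week, and 0.850 and 0.871 at 5 weeks. The numbers of genes of the set that were lower stayed at 6 and 7. The percentile in the whole list was lower for 4 of 7 genes at 1 week (40.1% of all) and 4 of 8 at 5 weeks (20.0% of all). Among promoter peaks it was lower for 4 of 7 at 1 week (47.2% of all) and for 7 of 8 at 5 weeks (38.3% of all), with Chd4 as the one that was higher. The peak was narrower in 5 of 7 at 1 week (65.3% of all) and in 5 of 8 at 5 weeks (37.8% of all). The counts at 1 week lie near those of all genes. At 5 weeks the ranks and widths were lower in more of the 8 than over all genes, by a few genes and with 1 library a group.

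**Figure D3:**
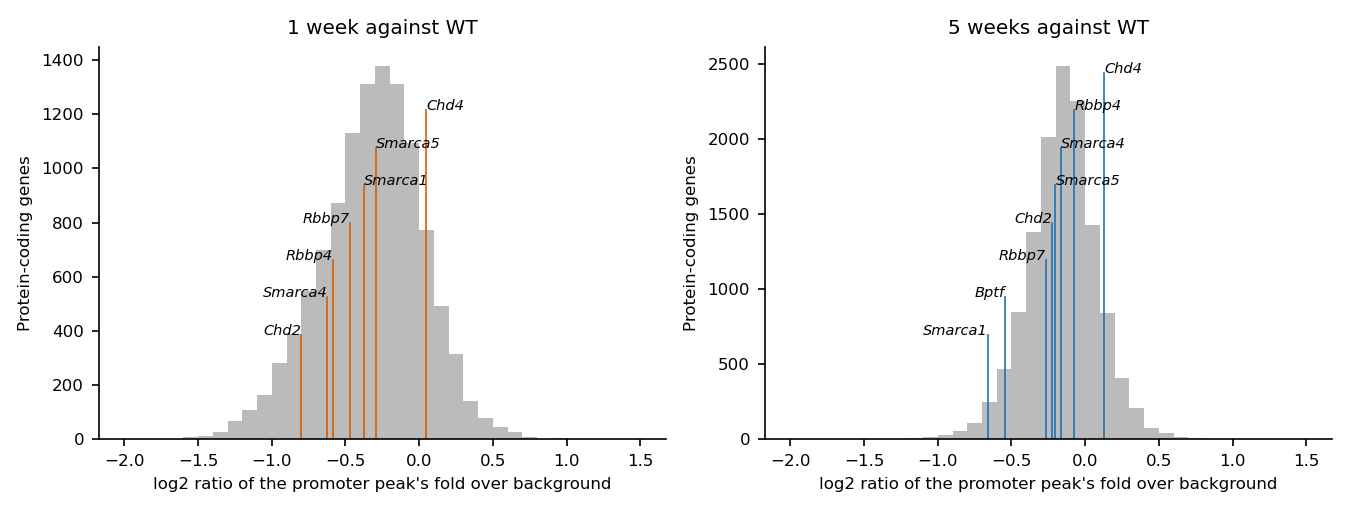
Log2 ratio of the fold of the promoter peak at 1 week (left) and 5 weeks (right) to WT, over all genes with both peaks (grey bars, number of genes), with the genes of the set as lines whose heights only separate the names. Chd2 lies farthest to the left at 1 week, Smarca1 and Bptf at 5 weeks, and Chd4 is right of 0 in both.

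The GC content of the surroundings moved with the values of both Taf4 KO lists. All genes called in WT were split into 5 groups of equal size, from GC-poor to GC-rich surroundings of 1 Mb. The share without a peak at 1 week was 2.84%, 7.5%, 11.2%, 20.1% and 30.7% from the lowest to the highest group, and at 5 weeks it lay between 1.33% and 2.50%. The median change of rank among promoter peaks at 1 week went from 12.2 points in the lowest group to -8.98 points in the highest. Smarca1, Smarca5 and Rbbp7 belong to the lowest group, with a GC content of 41.6%, 41.8% and 41.6%. Bptf and Chd2 are in the middle one with 45.0% and 44.8%, Rbbp4 in the next with 47.4%, and Chd4 and Smarca4 in the highest with 48.5% and 49.5%. The number of peaks in the 1 Mb around the start did not follow these groups throughout, and at 1 week it moved in opposite directions around Bptf and Chd2. It was higher at 1 week than in WT around Smarca5, with 13 against 77, and Chd2, with 35 against 75, and lower around Bptf, with 50 against 24, Rbbp4, with 71 against 34, Chd4, with 71 against 64, and Smarca4, with 82 against 50. At 5 weeks these 6 had 104, 105, 63, 70, 80 and 78. Among genes with both peaks, the median fold ratio at 1 week lay between 0.808 and 0.816 in the 5 groups. Genes without a peak at 1 week have no ratio and were most frequent in the GC-rich groups. These medians therefore cannot show whether the fold followed GC at 1 week. The medians at 5 weeks rose with GC, at 0.870, 0.884, 0.897, 0.926 and 0.950 from the lowest to the highest group. At 5 weeks the ratios of Smarca1, Rbbp7 and Smarca5, in the lowest group, were 0.632, 0.832 and 0.870. The part of base composition in the values of the 8 genes was not tested.

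**Figure D4:**
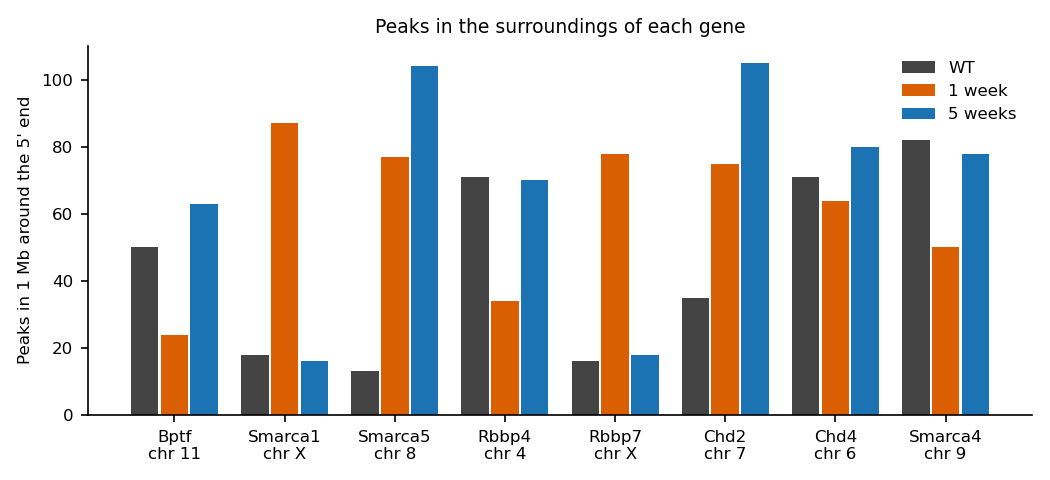
Number of peaks in the 1 Mb around the 5′ end of each gene in the WT, 1 week and 5 week lists. The bars at 1 week are the highest at the X-linked Smarca1 and Rbbp7, with 87 and 78, and the lowest of the 3 at Bptf, Rbbp4, Chd4 and Smarca4.

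The regions were also compared by place. Joined over the 3 lists, the 8 loci held 47 regions, of which 17 were in all 3 lists, 9 in WT alone, 8 at 1 week alone and 7 at 5 weeks alone. Of the 233507 regions joined in the same way over the genome, wherever they lay, 15.7% were in all 3 lists, 4.91% in WT alone, 30.0% at 1 week alone and 26.2% at 5 weeks alone. Of the WT promoter peaks, 7 of 8 were overlapped at 1 week and 8 of 8 at 5 weeks, beside 85.5% and 97.5% of WT promoter peaks over the genome. Of the WT intragenic peaks, 7 of 15 were overlapped at 1 week (46.7%, Wilson 95% interval 24.8 to 69.9) and 8 of 15 at 5 weeks (53.3%, 30.1 to 75.2), beside 54.0% and 74.2% over the genome. The 7 intragenic peaks in WT alone were weak, with -log10 q from 1.14 to 2.43 and percentiles from 0.432 to 32.5. No share over the genome for peaks this weak is given here. Of all 29 WT peaks of the loci, 58.6% (40.7 to 74.5) were overlapped at 1 week and 69.0% (50.8 to 82.7) at 5 weeks, beside 61.9% and 79.5% of the whole WT list. These intervals cover the counting of peaks only. They treat peaks as independent, though the peaks lie together in 8 loci and each group is 1 library. They therefore cannot decide whether the loci differ from the whole list. The peaks covered 24259 bp of the loci in WT, 18745 bp at 1 week and 23636 bp at 5 weeks, so that the longer Taf4 KO lists did not cover more of these 8 loci than the WT list did. The whole lists covered 39.4 Mb (WT), 99.3 Mb (1 week) and 105 Mb (5 weeks). No such lengths for gene loci in general are given here, so this cannot be called a trait of these 8.

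Genes of the partner and related complexes were looked at for comparison, 51 in all. Promoters carried a peak in 47 (WT), 42 (1 week) and 48 (5 weeks). Of the 47, 5 had none at 1 week and 0 had none at 5 weeks, and the 5 were spread over 3 complexes. They were Pole3, a histone-fold subunit that works with Smarca5, Smarcd1 and Smarce1, accessory subunits of SWI/SNF, and Actr5 and Actr8, actin-related subunits of INO80. Their -log10 q in WT was 15.8, 8.0, 8.45, 16.2 and 14.5 in that order, and at 5 weeks 6.35, 8.36, 6.28, 12.8 and 13.0. Like Bptf, these promoters were missing from the 1 week list and present in the other lists. Over all genes called in WT, 14.5% lacked a promoter peak at 1 week and 1.89% at 5 weeks. The 5 of 47 and 0 of 47 do not exceed these shares. Chd5, a chromodomain motor found mainly in neurons, had a peak at 5 weeks alone, with a -log10 q of 2.22. The ISWI partners had 8, 7 and 8 of 8, the other CHD genes 6, 6 and 7 of 8, NuRD 9, 9 and 9 of 10, SWI/SNF 17, 15 and 17 of 18, and INO80 with SRCAP 7, 5 and 7 of 7. The fold was lower than in WT in 32 of 42 at 1 week, with a median ratio of 0.799, and in 36 of 47 at 5 weeks, with 0.910. Over all genes with both peaks, 83.3% and 76.6% were lower, with median ratios of 0.813 and 0.903.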

How the data were processed

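The authors mapped the reads to mm9 with Bowtie 1.0.0, keeping unique alignments, and called broad peaks for each library on its own with MACS2 2.1.1. Base calls came from bcl2fastq 2.17.1.14, per the labels. The sources used here name neither a control, nor removal of duplicates, nor a shift of reads to the cut site, without which a peak can be displaced by a few bases. The deposited lists give per peak a ratio (the fold over local background), the -log10 p-value and the -log10 q-value, each averaged over the peak. The whole-number score that the authors deposited with each peak follows the -log10 q-value and was not used. Read totals are not part of these lists. The background and pileup behind a peak were recovered from its fold and p-value, and the first percentile of the background served as a measure of depth. Whether this recovery holds for values averaged over a peak was not tested.

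The 8 genes and the lists of comparison genes were chosen with earlier results of these data known. Gene models and starts were taken from GENCODE for NCBIM37, the same build as mm9, with 46015 starts. For a gene with several promoter peaks in a list, the one with the highest -log10 q was used. Overlap was counted from 1 bp. All 8 genes were named, with Taf4, comparison genes whose promoter call differed, and neighbours whose promoter lies within 10 kb. The 2 mitochondrial peaks of each list were left out, and 1 WT peak ran past the end of chromosome X. Motifs were searched on both strands, a palindrome being counted once. Samples were grouped by the labelled genotype and time. No test was run, each group being 1 library. Alternatives were a -log10 q of at least 3 or 5, lists of equal number or equal covered length, other windows, flanks and overlaps, and, chosen after seeing the data, lists scaled to the WT background and the fold without the caller's pseudocount. Python 3.11.15, pandas 2.3.3, numpy 2.4.6, scipy 1.17.1, pysam 0.24.0 and matplotlib 3.10.9 were used.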

Additional observations from a re-analysis of the deposited data

How the results depend on the processing

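No paired analysis was possible because each group has 1 library. The 8 loci held 29 (WT), 29 (1 week) and 30 (5 weeks) peaks. A minimum -log10 q of 3, a cut that falls at a lower fold where the background is higher, left 18, 17 and 24. A minimum of 5 left 14, 9 and 19, and 3 of 8 promoters and 22 of 51 comparison promoters were called at 1 week. In lists of equal number, equal covered length or scaled to the WT background, 1 week had 18, covering 12036 bp in the first, and 5 weeks 24, 21 and 21, beside 29, 29 and 28 in WT, whose list the first 2 leave as it is. So 5 weeks exceeded WT at the minimum of 3 or 5 and fell below it in these 3. With 25 kb on each side, WT had 46 and 5 weeks 49. The median percentile of the promoter peaks, 85.8, 83.7 and 87.7 in whole lists, was 52.8, 39.1 and 44.4 among promoter peaks. In lists of equal number it was 61.7 at 1 week and 74.5 at 5 weeks. The median fold divided by that of all genes was 1.01, 0.946 and 0.988. The share of WT peaks overlapped at 1 week was 37.9% with a reciprocal overlap of 50%, and at 5 weeks 88.9% and 92.9% at a minimum -log10 q of 3 and 5. Stricter lists only remove peaks, so the absence of the Bptf promoter peak at 1 week could not change there. The cause of these moves was not tested. Lists hold no read totals, and a peak under the caller's limit cannot be told from none.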
